A study of Mus musculus with 18 samples.

Results

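The circadian clock genes described here are Per1, Per2, Per3, Cry1, Cry2, Nr1d1, Nr1d2, Dbp, Tef and Arntl, chosen by symbol. All 10 were among the 10509 genes of the deposited table. They were measured in pancreatic islets of NRK1_BKO mice (KO, 10 mice) and NRK1_WT mice (WT, 8 mice). In KO mice the kinase NRK1, encoded by Nmrk1 and part of the salvage of nicotinamide riboside into NAD, was deleted with an Ins1Cre driver, which acts in beta cells and not in the other islet cells. KO and WT mice alike had been fed a high-fat diet (HFD) for 12 weeks, and islets were taken when the mice were killed. The sources used here do not state age, sex, the hour of collection or whether WT mice carried Cre. Titles carry an animal number, so each library was taken as a separate mouse.

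The mammalian clock is a feedback loop of transcription. BMAL1, the product of Arntl, pairs with CLOCK on E-box elements and drives the Per, Cry and Nr1d genes together with the output factors Dbp and Tef. PER and CRY proteins then repress that pair, while the REV-ERB receptors made by Nr1d1 and Nr1d2 repress Arntl through ROR elements, and DBP and TEF act on D-box elements. In rodent tissues Arntl RNA is therefore high at the hours when Dbp and Nr1d1 RNA is low. Islets hold such a clock, and loss of Arntl in mouse beta cells is known to impair insulin secretion.

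Promoter stretches that hold these elements are shown for 5 of the genes, because the loop is defined by them. They come from the RefSeq promoter table of GRCm38.p6, which covers 250 bases before to 50 bases after each start and held 9 of the 10 genes, with 12 promoters. They are printed 5′ to 3′ on the gene's strand with the element in capitals. Searches on both strands used CACGTG for the E-box, TTANGTAA or its reverse complement TTACNTAA for the D-box, and TAGGTCA or TGACCTA for the ROR and REV-ERB element.
Per3, minus strand, chr4:151044791-151044895: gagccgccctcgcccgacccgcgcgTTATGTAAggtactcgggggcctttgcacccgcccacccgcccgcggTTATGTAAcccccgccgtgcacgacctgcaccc
Per1, plus strand, chr11:69098743-69098828: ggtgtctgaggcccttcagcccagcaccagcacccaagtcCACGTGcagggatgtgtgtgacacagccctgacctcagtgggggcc
Cry1, minus strand, chr10:85185069-85185154: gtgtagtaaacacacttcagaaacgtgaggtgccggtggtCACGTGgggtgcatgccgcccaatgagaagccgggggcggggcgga
Tef, plus strand, chr15:81802506-81802591: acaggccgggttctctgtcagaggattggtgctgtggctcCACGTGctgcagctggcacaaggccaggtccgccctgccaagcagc
Arntl, plus strand, chr7:113207531-113207557: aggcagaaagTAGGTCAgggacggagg

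Per3 carried 2 copies of the D-box, which was found in no other of the 9 genes and in 2.72% of the 27025 genes with a promoter. The E-box was found in Per1, Cry1 and Tef, against 8.09% of those 27025 genes. The ROR and REV-ERB element was found in Arntl alone, in the promoter of its second start, against 2.97% of those 27025 genes. A match describes these letters and not a bound site.

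Libraries were made with a 3′ end kit (QuantSeq FWD), which gives reads from the end of a transcript, so that read numbers do not scale with transcript length. Each library held 2831137 to 4303680 reads over the listed genes. Values are log2 of CPM, a library-scaled read count, plus a floor of 0.562 CPM, as deposited, and a gene with no read is listed at -0.83. KO 2, KO 3 and WT 7 had the most genes with 0 reads, at 320, 227 and 346, so results were also computed without these 3 libraries. Nmrk1 averaged 1.99 ± 0.49 in KO islets and 2.01 ± 0.92 in WT islets (log2, SD, n = 10 and 8), but the deleted exons are not given and 3′ reads may lie outside them, so this does not check the labels. Ins2, the beta-cell hormone gene, was at 18.33 to 19.46 in KO islets and 18.16 to 19.03 in WT islets.

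Across the 18 libraries Tef had the highest level of the clock genes and Arntl the lowest. The range of Tef did not overlap that of any other clock gene. Below it came Nr1d2, then Cry2, Nr1d1, Dbp, Per3, Per1, Cry1 and Per2 by mean level, and each of these overlapped its neighbour in that order.

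**Figure D1:**
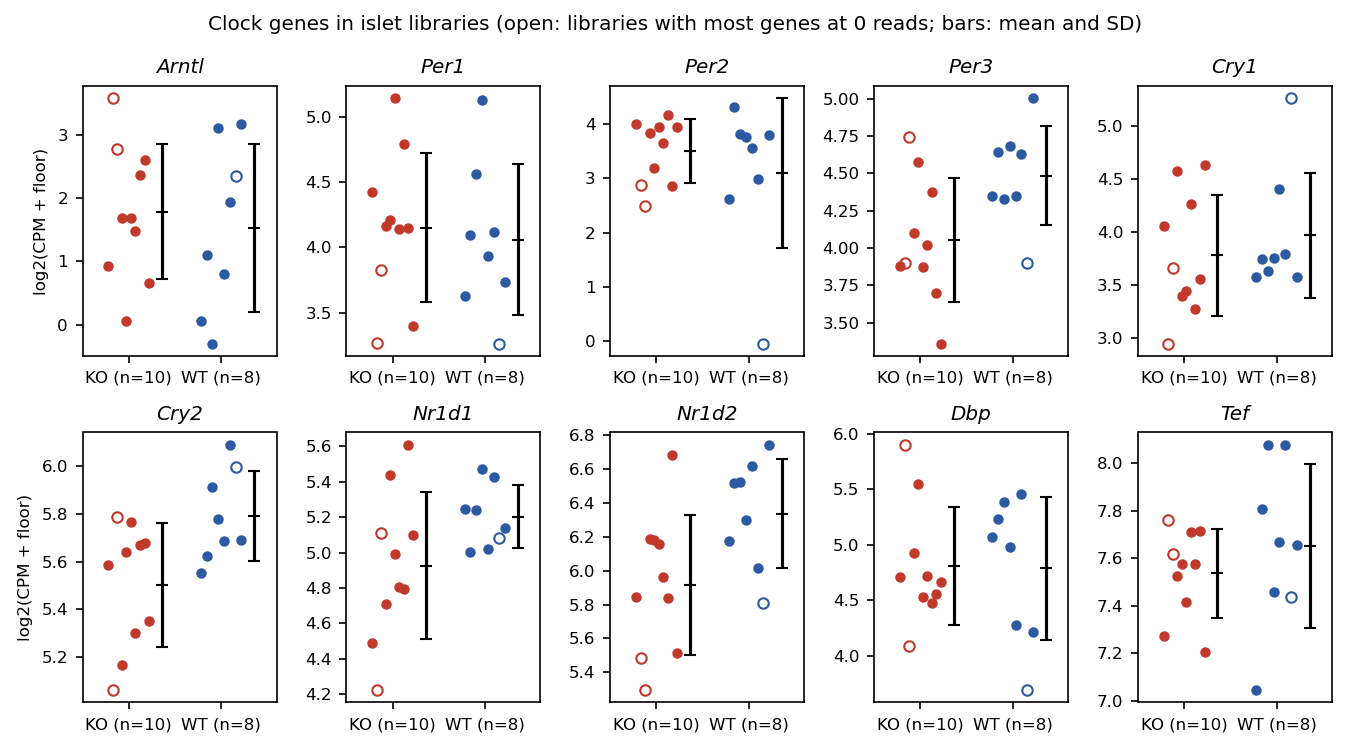
Log2 level (CPM plus floor) of the 10 clock genes in each KO library (left of each pair) and WT library, with bars for the mean ± SD and open circles for KO 2, KO 3 and WT 7. The groups overlap for every gene, and Arntl spreads from -0.29 to 3.57.

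Arntl (Entrez 11865, chromosome 7, 113178471 to 113314126) encodes BMAL1, the activator. It was the sparsest of the clock genes, with 1 to 31 reads per library and a median of 10. KO islets had a lowest value of 0.07, a median of 1.68 and a highest value of 3.57. WT islets had a lowest value of -0.29, a median of 1.51 and a highest value of 3.17. KO 2, WT 8, WT 4 and KO 3 were high and WT 3, WT 1 and KO 5 low, so both genotypes covered nearly the whole range.

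The Per genes encode the repressor partners of CRY. Per1 (Entrez 18626, chromosome 11, 69095108 to 69109965) had a lowest, median and highest value of 3.27, 4.16 and 5.14 in KO islets, against 3.26, 4.02 and 5.13 in WT islets. KO 6 and WT 4 were highest, WT 7 and KO 2 lowest, and the ranges nearly coincided. Per2 (Entrez 18627, chromosome 1, 91415977 to 91459351) had 2.5, 3.74 and 4.17 in KO islets, against -0.04, 3.66 and 4.30 in WT islets. The lowest Per2 value was that of WT 7, which rested on 1 read, while the other libraries had 13 to 73 reads. Per3 (Entrez 18628, chromosome 4, 150997018 to 151044707) had 3.36, 3.96 and 4.74 in KO islets, against 3.90, 4.49 and 5.0 in WT islets. KO 10 was lowest and WT 8 highest, and 5 of 10 KO libraries lay below the lowest WT library.

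Cry1 and Cry2 encode cryptochromes, the repressors that bind CLOCK and BMAL1. Cry1 (Entrez 12952, chromosome 10, 85131700 to 85185054) had a lowest, median and highest value of 2.95, 3.61 and 4.63 in KO islets, against 3.57, 3.75 and 5.26 in WT islets. WT 7 alone set the top of the WT range. Cry2 (Entrez 12953, chromosome 2, 92403646 to 92434085) had 5.06, 5.61 and 5.79 in KO islets, against 5.55, 5.74 and 6.09 in WT islets. All 10 KO libraries lay below the WT mean, 4 of them below the lowest WT library, yet the ranges still overlapped.

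Nr1d1 and Nr1d2 encode REV-ERBα and REV-ERBβ, the heme-binding repressors of Arntl. Nr1d1 (Entrez 217166, chromosome 11, 98767932 to 98775377) had a lowest, median and highest value of 4.22, 4.90 and 5.61 in KO islets, against 5.0, 5.19 and 5.47 in WT islets. The 8 WT libraries were close together, and 6 KO libraries lay below all of them while KO 9 lay above. Nr1d2 (Entrez 353187, chromosome 14, 18204056 to 18239106) had 5.29, 5.90 and 6.68 in KO islets, against 5.81, 6.41 and 6.75 in WT islets. In 9 of 10 KO libraries Nr1d2 was below the WT mean, the exception being KO 9.

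Dbp and Tef encode PAR bZIP factors, which carry the rhythm to output genes through D-boxes. Dbp (Entrez 13170, chromosome 7, 45705100 to 45710203) had a lowest, median and highest value of 4.08, 4.69 and 5.90 in KO islets, against 3.69, 5.02 and 5.46 in WT islets. KO 2 was the highest library and WT 7 the lowest. Tef (Entrez 21685, chromosome 15, 81802673 to 81826863) had 7.21, 7.58 and 7.76 in KO islets, against 7.05, 7.66 and 8.08 in WT islets. The KO range of Tef lay inside the WT range.

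Exons of 5 of these genes overlap a gene on the opposite strand in GENCODE vM21. Nr1d1 shares 263 bases with Thra, Dbp 539 with Sphk2, Cry2 295 with D930015M05Rik, Tef 193 with Gm17597 and Arntl 33 with Gm45355. No source used here states the strand setting of the counting, so reads of these partners cannot be told apart if strand was ignored. The log2 difference of KO minus WT was 0.07 for Thra and -0.19 for Sphk2 (limma, adjusted p = 0.982 and 0.953).

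The first comparison was between Arntl and the genes known to run opposite to it, as a sign of the hour of collection. Over the 18 libraries Arntl was lower where Dbp was higher only weakly, with Pearson's r = -0.243 (permutation p = 0.333, adjusted 0.651 over the 45 pairs of clock genes) and Spearman's rho = -0.292 (permutation p = 0.240, adjusted 0.878). Within KO islets r was -0.0256 (permutation p = 0.943, n = 10), and within WT islets it was -0.438 (exact permutation p = 0.265, n = 8). Neither value passed the test, and at r = -0.0256 the sign in KO islets is not informative.

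Single libraries moved this value in both directions. KO 2 was the highest library for both Arntl, with 30 reads, and Dbp, at 5.90. Without KO 2 the r of Arntl and Dbp was -0.555 (permutation p = 0.0216, adjusted 0.324). Without the 2 libraries farthest from the median of Arntl, KO 2 and WT 3, it was -0.484. Without KO 2, KO 3 and WT 7 it was -0.483 (permutation p = 0.0690, adjusted 0.463, 15 libraries). The value was nearer 0 without KO 5, at -0.147, and without WT 3, at -0.153. With values centred within runs of consecutive animal numbers it was -0.137 (permutation p = 0.639, 14 libraries). Of the other 10508 genes, 23.2% had a lower r with Arntl than Dbp had over the 18 libraries.

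Arntl and Nr1d1 had r = -0.165 (permutation p = 0.512, adjusted 0.768) and rho = -0.0650 (permutation p = 0.798, adjusted 0.922). The sign and size varied with the libraries used. In KO islets r was -0.310 (permutation p = 0.384, n = 10), whereas in WT islets it was 0.248 (exact permutation p = 0.535, n = 8). It was also positive without KO 2 alone, at 0.101, without KO 2 and WT 3, at 0.174, and without the 3 libraries with most genes at 0 reads, at 0.109. With values centred within runs of animal numbers it was -0.456 (permutation p = 0.100, 14 libraries), the most negative value of the settings tried. Without KO 5 alone it was -0.0783, without KO 9 it was -0.272, without WT 4 it was -0.285, and without KO 1 it was -0.252. Of the other genes, 32.3% had a lower r with Arntl than Nr1d1 had.

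As log2 differences within a library, Dbp minus Arntl was lowest at 1.32 in KO 3, with a median of 3.04 and a highest value of 5.48 in KO 5, over KO islets. Over WT islets it was lowest at 1.04 in WT 8, with a median of 3.50 and a highest value of 5.68 in WT 3. The mean was 3.03 ± 1.20 in KO islets and 3.26 ± 1.70 in WT islets (SD, n = 10 and 8). Nr1d1 minus Arntl averaged 3.15 ± 1.26 in KO islets and 3.68 ± 1.28 in WT islets, with KO 5 and WT 3 again at the top. KO 5 and WT 3 held 2 and 1 Arntl reads, so their differences rest mainly on Arntl near its floor. No library was assigned an hour, because no label gives one, and the part of collection time in these values was not tested.

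**Figure D2:**
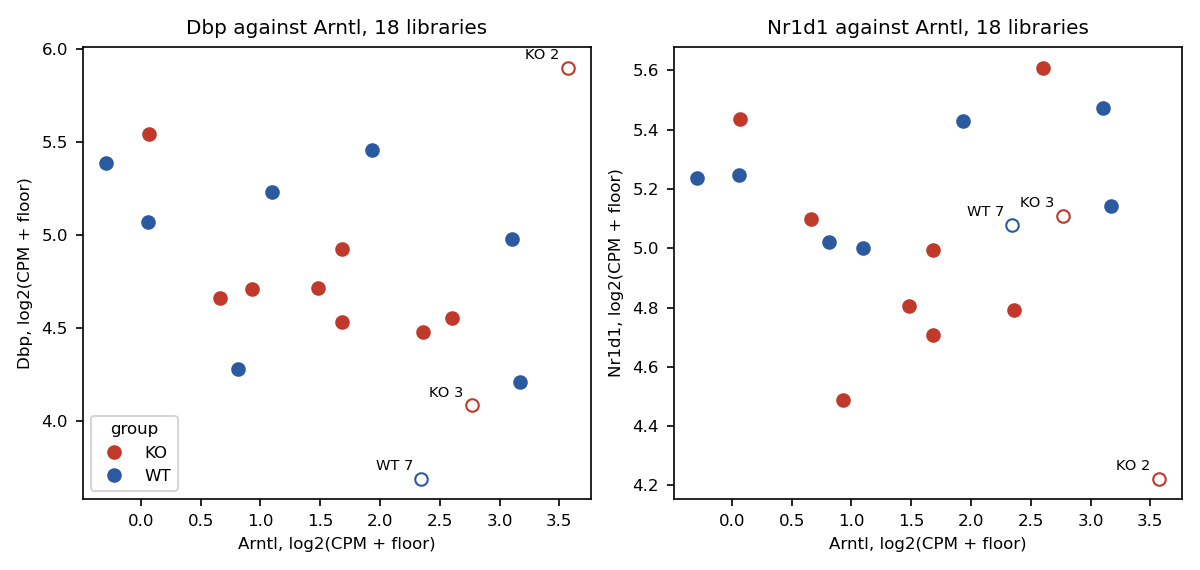
Log2 level of Dbp (left) and Nr1d1 (right) on the vertical axis against that of Arntl on the horizontal axis, 1 point per library, with KO and WT in separate colours and open circles for KO 2, KO 3 and WT 7. KO 2, at 3.57 for Arntl and 5.90 for Dbp, is the highest library for both genes in the left panel.

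Of the 45 pairs of clock genes, 27 had a positive and 18 a negative r, and 0 passed an adjusted permutation p of 0.05. For 3 pairs the unadjusted permutation p was under 0.05, a threshold that some of 45 pairs pass by chance. Cry2 and Nr1d1 had r = 0.639 (permutation p = 0.00426, adjusted 0.192) and rho = 0.529 (permutation p = 0.0263), with r at 0.601 in KO islets and 0.390 in WT islets, and at 0.528 without the 3 libraries with most genes at 0 reads. Per1 and Per2, which share E-box control, had r = 0.549 (permutation p = 0.0147, adjusted 0.332) and rho = 0.534 (permutation p = 0.0243), but r was 0.333 (permutation p = 0.227) without the 3 libraries with most genes at 0 reads. Cry1 and Dbp had r = -0.529 (permutation p = 0.0239, adjusted 0.358) but rho = -0.286 (permutation p = 0.250). Their r was -0.186 without the 3 libraries with most genes at 0 reads. Without these 3 libraries the unadjusted permutation p was under 0.05 for 4 pairs, and 0 passed after adjustment. The 4 were Cry2 with Nr1d1, Cry2 with Tef, Per2 with Nr1d1 and Cry1 with Cry2. Per2 with Nr1d1 then had r = -0.638 (permutation p = 0.0102, adjusted 0.360), and Cry1 with Cry2 r = -0.606 (permutation p = 0.0160, adjusted 0.360). Arntl had a negative r with 7 of the 9 other genes, where the median r with Arntl over all other genes was -0.0266. Without the 3 libraries with most genes at 0 reads, r with Arntl was negative only for Dbp, at -0.483, and Cry1, at -0.163. It was then positive for the rest, at 0.109 to 0.299.

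None of 3 pairs known to peak at like hours passed the test. Nr1d1 and Nr1d2 had r = 0.458 (permutation p = 0.0564), and Dbp and Tef had r = 0.332 (permutation p = 0.177). Dbp and Nr1d1 had r = -0.0838 (permutation p = 0.741), against 0.356 without the 3 libraries with most genes at 0 reads.

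**Figure D3:**
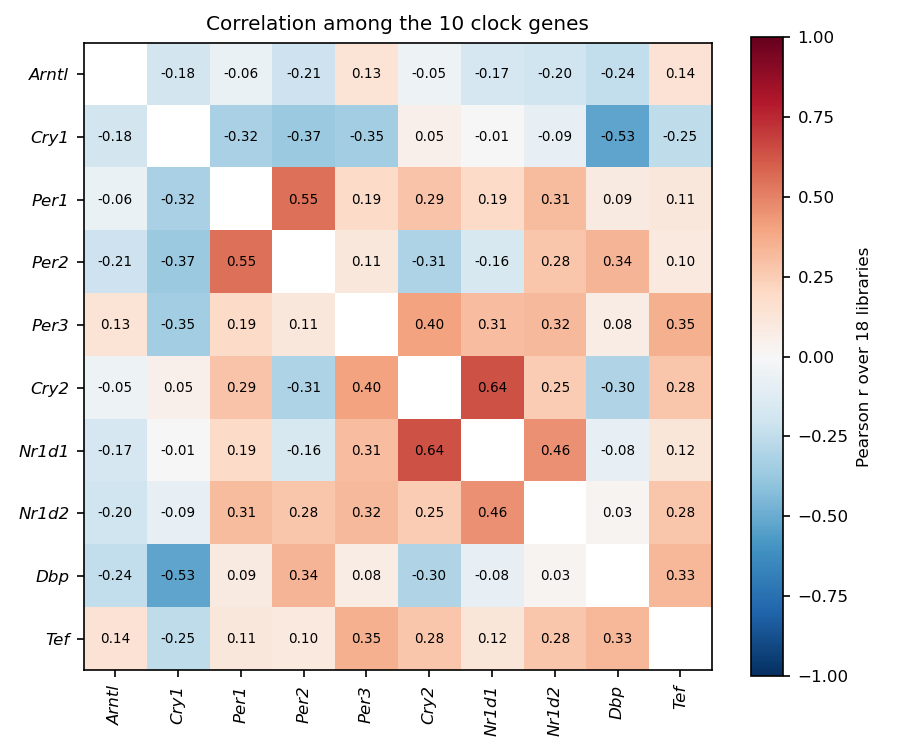
Pearson's r over 18 libraries for each pair of the 10 clock genes, as a coloured grid from -1 to 1. Cry2 with Nr1d1 has the highest value, 0.639, and Cry1 with Dbp the lowest, -0.529.

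The second comparison was KO against WT islets. No clock gene passed limma's test across all genes at an adjusted p of 0.05. Means were lower in KO islets for 6 of the 10 genes, where 50.4% of all genes had a lower mean, and the median log2 difference was -0.15, against -0.0025 over all genes. Over all 10509 genes 0 passed (0%), while 567 had an unadjusted limma p under 0.05 (5.4%) and voom on the recovered reads also called 0. Of the clock genes 3 had an unadjusted limma p under 0.05, all lower in KO islets, beside 2.22% of all genes lower and 3.18% higher at that threshold. The genotypes did not overlap for 0 of the 10 clock genes, against 0.00952% of all genes. In bulk islets, fewer cells of a type and less RNA per cell cannot be told apart.

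These 3 were Nr1d2, Per3 and Cry2. Nr1d2 averaged 5.92 ± 0.41 in KO islets and 6.34 ± 0.32 in WT islets (SD, n = 10 and 8), a log2 difference of -0.42 ± 0.17 (SE; 0.747-fold; limma p = 0.0196, adjusted 0.925; exact permutation p = 0.0331). Per3 averaged 4.05 ± 0.41 in KO islets and 4.48 ± 0.33 in WT islets, a difference of -0.43 ± 0.20 (SE; 0.741-fold; limma p = 0.0374, adjusted 0.925; exact permutation p = 0.0297). Cry2 averaged 5.50 ± 0.26 in KO islets and 5.79 ± 0.19 in WT islets, a difference of -0.29 ± 0.14 (SE; 0.818-fold; limma p = 0.0449, adjusted 0.925; exact permutation p = 0.0177). None of these differences passed the correction for the number of genes, and the groups overlapped for each. Without KO 2, KO 3 and WT 7 the log2 difference was -0.37 for Nr1d2, -0.58 for Per3 and -0.24 for Cry2 (limma p = 0.0238, 0.00536 and 0.0876, before adjustment), and the lowest adjusted p of the 3 was 0.509, for Per3.

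Nr1d1, the paralogue of Nr1d2, averaged 4.93 ± 0.42 in KO islets and 5.20 ± 0.18 in WT islets (SD, n = 10 and 8), a log2 difference of -0.28 ± 0.17 (SE; limma p = 0.115, adjusted 0.945). The remaining repressors differed by less than their spread. Per1 had a log2 difference of 0.09 (95% interval -0.43 to 0.61), Per2 of 0.40 (-0.43 to 1.23) and Cry1 of -0.19 (-0.72 to 0.35). The positive value of Per2 rested on WT 7, since it was -0.05 without that library. For the output factors the difference was 0.02 for Dbp (-0.48 to 0.53) and -0.12 for Tef (-0.39 to 0.16). Arntl had the widest interval, 0.25 (-0.77 to 1.28). Adjusted limma p for these 6 genes was 0.961 to 0.993.

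**Figure D4:**
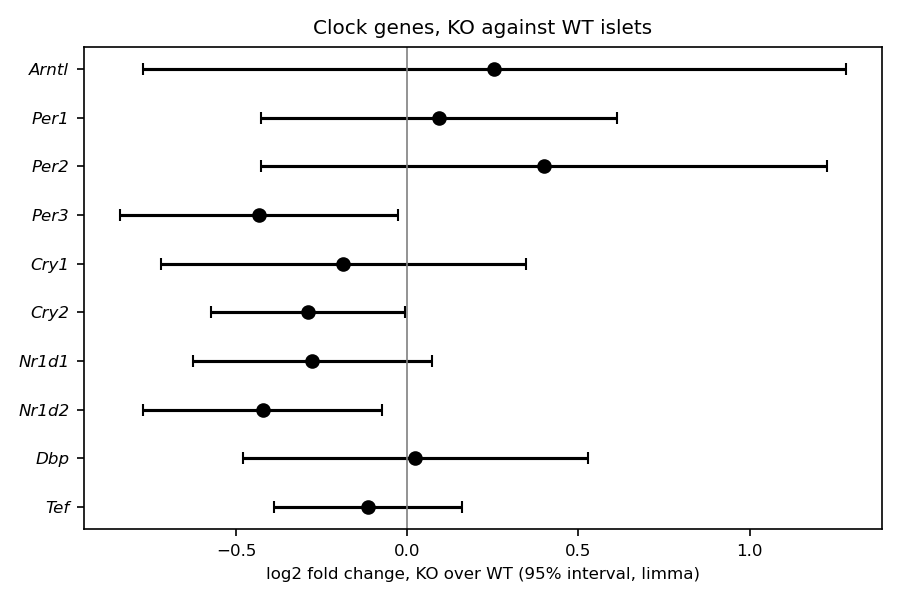
Log2 difference of KO minus WT islets for each of the 10 clock genes, with points for the estimate and bars for limma's 95% interval. The intervals of Nr1d2, Per3 and Cry2 lie below 0, before correction for the number of genes, and that of Arntl is the widest.

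Animal numbers fell into runs of consecutive numbers, of which 3, with 12 libraries, held both genotypes. The number of KO 1 has more digits than the others, so KO 1 was left out of the runs. The labels do not say what a run shares, such as a litter or a day. Nr1d2 differed by -0.96, -0.22 and -0.63 (log2, KO minus WT) within the 3 runs, Per3 by -0.18, -0.16 and -0.26, Cry2 by -0.16, -0.44 and -0.11, and Nr1d1 by -0.46, -0.28 and -0.16. These 4 genes were lower in KO islets in each run, on 1 to 3 libraries a group. The other 6 changed sign between runs. With the run as a term, the 12 libraries gave -0.60 for Nr1d2 (limma p = 0.00161, adjusted 0.478), -0.19 for Per3 (limma p = 0.415) and -0.25 for Cry2 (limma p = 0.190). The same 12 libraries without that term gave -0.55, -0.24 and -0.23 (limma p = 0.00683, 0.288 and 0.223). The -0.96 for Nr1d2 was in the run of KO 2 and KO 3. Their Nr1d2 values, 5.48 and 5.29, were the lowest of all libraries. KO 2 and KO 3 had 320 and 227 genes at 0 reads, against 150 and 120 in WT 1 and WT 2. Genotype and genes at 0 reads cannot be told apart in that run. No fit with the run as a term left out KO 2 and KO 3. If KO 1 is placed where its number would continue a run with its repeated digit removed, 15 libraries fall in runs with both genotypes. With the run as a term these gave -0.50 for Nr1d2 (limma p = 0.00357, adjusted 0.754), -0.40 for Nr1d1 (limma p = 0.0438, adjusted 0.793), -0.29 for Cry2 and -0.23 for Per3. For Nr1d1 the 12 libraries had given -0.31 (limma p = 0.150). Arntl differed most within a run: in the run of KO 2 and KO 3 it averaged 3.17 in these and 0.58 in WT 1 and WT 2.

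Over the 14 libraries in runs of more than 1, Per1 and Per2 had the highest share of their spread between runs among the 10 clock genes. Between-run differences made up 53.8% of the variance of Per2 and 49.7% of that of Per1 over 14 libraries in 4 runs, against a median of 28.6% over all genes. Without WT 7, whose Per2 value rested on 1 read, WT 6 was also left out, since its run then held 1 library. The shares over the 12 libraries in 3 runs were 47.6% for Per1, 35.4% for Dbp and 32.4% for Per2, against a median of 21.0%. Dbp was then above Per2. That setting was chosen after the data had been seen. Over the 14 libraries the share was 9.63% for Arntl, 6.65% for Tef and 15% to 35.0% for the other 6 clock genes.

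Of a list of other core clock genes, 15 of 20 were measured and 0 passed the test in either direction. Their median log2 difference was -0.0050, with 7 higher and 8 lower in KO islets and none at an unadjusted limma p under 0.05. Clock, the partner of BMAL1, averaged 5.64 ± 0.33 in KO islets and 5.58 ± 0.21 in WT islets (log2, SD, n = 10 and 8). Csnk1d, the kinase that marks PER proteins for degradation, had a difference of -0.38 ± 0.23 (SE; limma adjusted p = 0.945). Ciart, a repressor of CLOCK and BMAL1, was at 0.70 on at most 29 reads per library. Rora, the activator of Arntl through ROR elements, was at 0.04, and Nfil3, the repressor at D-boxes, at 0.13.

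Of a list of clock output genes, 10 of 15 were measured and 0 passed, with 8 higher and 2 lower in KO islets and a median of 0.08. Over all 10509 genes 5212 were higher in KO islets. Nampt, a clock-controlled enzyme of NAD salvage, had a log2 difference of 0.41 (limma p = 0.0338, adjusted 0.925). Ppp1r3c, a glycogen-targeting subunit of protein phosphatase 1, was at 1.00 (limma p = 0.0348) on at most 24 reads per library. Wee1, a cell-cycle kinase driven by the clock in mouse liver, was at -0.50 and Klf10 at 0.43.

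Genes that respond to handling, temperature or stress hormones, which also set Per1 and Per2 in mouse tissues, gave 0 calls. Of the immediate early genes, 13 of 16 were measured, 11 were higher in KO islets, 5 had an unadjusted limma p under 0.05 and the median was 0.28. The mean level of that list was 3.92 to 5.16 in KO libraries and 3.60 to 4.56 in WT libraries. Of the glucocorticoid-responsive genes 7 of 8 were higher in KO islets (median 0.31), and of the temperature-responsive genes 6 of 10 (median 0.05). For comparison, 5212 of all 10509 genes were higher in KO islets, and 5.4% had an unadjusted limma p under 0.05 in either direction.

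No cell type marker passed limma's test. The 6 measured alpha-cell markers, none at 0 reads in any library, had a mean level of 5.40 to 6.74 in KO libraries and 6.15 to 7.02 in WT libraries. Of these 5 were lower and 1 higher in KO islets, with a median log2 difference of -0.62. An unadjusted limma p under 0.05 was found for 2 of them, against 5.4% of all genes. The 3 measured adipocyte markers, also never at 0, ranged from 2.60 to 4.61 in KO libraries and 2.14 to 3.22 in WT libraries. All 3 were higher in KO islets, with a median of 0.78, and 2 had an unadjusted limma p under 0.05. The 10 acinar markers, of which Cpa1 and Cpb1 were at 0 in some libraries, ranged from 1.84 to 7.31 in KO libraries and 2.12 to 7.17 in WT libraries. Of the endothelial markers 6 of 7 were higher in KO islets (mean level 5.07 to 5.82 in KO libraries and 4.83 to 5.42 in WT libraries), and of the stromal markers 7 of 8 (2.75 to 4.08 in KO libraries and 2.79 to 3.76 in WT libraries). Of the beta-cell markers 7 of 9 were lower in KO islets (10.59 to 11.36 in KO libraries and 10.98 to 11.22 in WT libraries). Among them Ins1, the gene the Cre driver is named for, had a log2 difference of -0.68 (limma p = 0.0508, adjusted 0.926). Whether the driver changes Ins1 was not tested. Ins2, 1 of the 2 that were higher, averaged 18.76 in KO islets and 18.47 in WT islets. Over all 10509 genes 5212 were higher and 5297 lower in KO islets. With the acinar level as a covariate Nr1d2 was at -0.44, Per3 at -0.44 and Cry2 at -0.29. The part of the alpha-cell, adipocyte, endothelial, stromal and beta-cell markers in the clock values was not tested.

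Genes whose levels followed Dbp or Arntl over the 18 libraries were sought among those with a mean log2 value of at least 4, as a description with no test. No clock gene was among the 8 nearest or the 8 most opposite to either. Arntl, Per2 and Cry1, with means of 1.67, 3.32 and 3.87, were below that level and could not be listed. Nearest to Dbp were Isl1, an islet transcription factor gene (r = 0.785, and 0.677 without the 3 libraries with most genes at 0 reads), and Tm2d2 (0.760 and 0.562). Most opposite to Dbp were Hip1r (-0.797 and -0.504) and N4bp1 (-0.783 and -0.634). Nearest to Arntl was Stk38, which encodes a serine/threonine kinase (0.778 and 0.731), and most opposite was Cox5b, a subunit gene of cytochrome c oxidase (-0.751 and -0.656). Levels in 1 library share its depth and scaling, and these values were picked as extremes out of 5443 or 5444 genes.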

How the data were processed

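The table deposited by the authors holds log2 values of 10509 genes in 18 libraries. GRCm38, edgeR, HTSeq 0.6.1 and STAR 2.5.2 are listed without roles in the submitters' processing notes, and no source used here states the gene filter or prior count. After the shared lowest value of 0.562 CPM was subtracted, linear values were whole multiples of 1 read, worth 0.238 to 0.411 CPM, for 100% of values within 0.05 reads. Reads include PCR copies, so their numbers give too small an error, and fold changes understate those of genes with few reads.

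Genotypes were taken from the labels. They were compared with limma 3.58.1 (R 4.3.3; variance trend, two-sided, no covariate) over all genes, with Benjamini-Hochberg adjusted p under 0.05, and per clock gene by an exact permutation test over all 43758 regroupings. No gene was removed by a filter before the main fit, and all 10509 were tested. Correlations used 100000 two-sided permutations (exact within WT), adjusted over 45 pairs. Lists were described by counts and medians. Named genes are the 10 clock genes, up to 4 genes of smallest limma p per other list, and the 8 nearest and 8 most opposite genes to Dbp and Arntl. Clock, Rora and Nfil3 were named for their roles, with values known. Members and lists were chosen with earlier results of these data known. Only the limma fit was tried on simulated data, with 200 changed genes, and its outcome is not given here. The permutation tests and the gap test were not tried on simulated data. 1 result of the named-gene rule is not reported here.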

Additional observations from a re-analysis of the deposited data

Results flagged for a closer look

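Per2 in WT 7 stood apart from the other WT libraries. It was at -0.040 on the log2 scale, from 1 read, while the next lowest WT library was at 2.61. The gap made up 0.611 of the WT range, above the critical value of 0.526 for 8 samples. It was the only such value among 20 groups tested, 10 genes in each genotype, where chance gives about 1 in 20. WT 7 also had the most genes at 0 reads, 346, and the highest Cry1 and lowest Dbp values of all libraries. Without WT 7 the log2 difference of Per2 was -0.049, against 0.40 with it.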

How the results depend on the processing

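No gene, and so no clock gene, passed under any of 14 alternatives or without any single library. Among the 14, the fit with no filter was identical to the main fit, so its outcome was fixed in advance. The lowest adjusted p over the clock genes was 0.478 under the alternatives and 0.566 with 1 library left out. Per3, Cry2, Nr1d1, Nr1d2 and Tef stayed lower in KO islets in all these fits. Tef, which changed sign between single runs, ranged from -0.20 to -0.011 under the alternatives. Its value nearest 0 was that of the 12 libraries with the run as a term (limma p = 0.945). With 1 library left out, Per3 ranged from -0.52 to -0.36, Cry2 from -0.32 to -0.24, and Nr1d2 from -0.51 to -0.35. Their largest unadjusted limma p were then 0.0903, 0.0982 and 0.0493.

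Signs turned for Per1, Per2, Cry1, Dbp and Arntl, none of which had an unadjusted p under 0.05. With sample weights Cry1 was 0.0052 and Dbp -0.11, and with voom Dbp was -0.0047. Without KO 2, KO 3 and WT 7, Cry1 was 0.12 and Dbp -0.18. In the 12 libraries of runs with both genotypes Per1 was -0.049, Per2 -0.16 and Dbp -0.11, and with the run as a term Per1 was -0.15 and Per2 -0.28. With 1 library left out, Dbp ranged from -0.13 to 0.12, Per1 from -0.021 to 0.25, Per2 from -0.049 to 0.57 and Arntl from -0.0057 to 0.49. The r of Arntl and Dbp ranged from -0.555 to -0.147, and that of Arntl and Nr1d1 from -0.285 to 0.101. Arntl and Nr1d1 had an r of 0.248 in WT islets, 0.109 without the 3 libraries and 0.174 without the 2 extremes of Arntl. The cause was not tested. Arntl was not among the genes kept by the filter of log2 above 3 in 8 samples. No paired analysis was possible because the labels give no replicate numbers that pair mice, and the term for runs of animal numbers was the only block fitted.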
